A study of Mus musculus with 13 samples.

Results

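CCL17 was added or left out while T cells of STAT5 tetramer-deficient mice were expanded, and the 6 resulting cultures are compared here, out of 13 libraries in all. They were chosen by their labels: 3 cultures with CCL17 and 3 without. All 6 came from DKI mice on a C57BL/6J background, in which STAT5 cannot form tetramers. Mice were immunized with the myelin peptide MOG35-55 in complete Freund's adjuvant, and the sources differ on pertussis toxin: the series' design text states that none was given for these cells, while the treatment protocol of the samples includes it. Cells of the spleen and lymph nodes were taken on day 14 and expanded with the peptide under Th17 conditions. CD4+ T cells were sorted 3 days into the expansion and their mRNA was sequenced. The controls without CCL17 carry the same STAT5 change, so the comparison shows CCL17 in tetramer-deficient cultures only. No matched pair of wild-type cultures with and without CCL17 was analysed here. The dose of CCL17 is not given in the sources used here, and nothing in the labels says that the cultures of a group came from separate mice, so p-values measure only the spread between these samples, which may be technical.

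CCL17 is a chemokine made mainly by dendritic cells and other myeloid cells. It binds CCR4, a G protein-coupled receptor carried by many activated and memory CD4+ T cells, and directs their migration. Th17 cells are CD4+ helper T cells that depend on the transcription factor RORγt and secrete IL-17A, IL-17F and, in their pathogenic form, GM-CSF. STAT5 relays signals from IL-2 and GM-CSF receptors, binding DNA as dimers and as tetramers of paired dimers. The series' title and design point to CCL17 as a product of monocytes that STAT5 tetramers regulate, and the comparison asks what the chemokine does to the T cells once it is supplied.

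The table gave 21073 genes, of which 11297 had an RPKM (read number corrected for gene length and library size) of at least 1 in 3 or more of the 6 libraries and were tested. Levels below are log2(RPKM + 1) throughout, and a difference is the level with CCL17 minus the level without, on that log2 scale. The estimated reads assigned per library ranged from 12500000 to 15800000. The labelled cell type held: the summed RPKM of 11 CD4 T cell markers was 2138 to 2419 in the 6 cultures, against 0.5 in bone marrow monocytes and 27.8 in spinal cord monocytes of the same table. It was higher, 2969 to 3019, in the 4 other Th17 cultures of the series. The cultures also contained RNA of other cells, among them phagocytes and cells of the B lineage. Immunoglobulin gene segments, a list added after the data were seen, summed to 4352.3 to 10067.5 RPKM in these 6 cultures. In the 4 other Th17 cultures that sum was 270.5 to 1063.9. Plasma cell markers summed to 324.3 to 611.2 RPKM in the 6 cultures and to 123.2 to 192.3 in the 4 others. The 15 macrophage and monocyte markers summed to 1123 to 1857 RPKM in these 6 cultures and to 178.5 to 420.4 in the 4 other Th17 cultures of the series, against 22307 and 21894 in the monocyte libraries. All 15 were detected, and none was at 0 in all 6. In bulk libraries, fewer cells of a type and less RNA per cell cannot be told apart.

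No gene passed the test between the groups. In limma with Benjamini-Hochberg adjustment, 0 of 11297 genes had an adjusted p under 0.05 (0%), and the smallest was 0.976. At an unadjusted p under 0.05, 239 genes were higher with CCL17 (2.12%) and 172 were lower (1.52%). The libraries numbered 1 stood apart in both groups, so differences within same-number pairs are given beside those between group means. A median gene had a 95% confidence interval of ± 0.225 for its difference without the replicate number as a block and ± 0.148 with it. With the block, 2 genes passed (0.0177%), both T cell receptor joining segments described at the end. All 3 pairs were higher with CCL17 for 1850 genes (16.4%) and lower for 2274 (20.1%), and these shares are the background for the counts that follow. The groups did not overlap for 588 genes that were higher with CCL17 (5.2%) and 484 that were lower (4.28%). Differences were small: 14 genes differed by at least 1 between group means and 62 by at least 0.5, and 8 genes were higher and 1 lower by over 0.5 in every pair.

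Among lists with at least 5 tested members, the lowest medians with CCL17 were those of phagocyte genes. Of 18 genes of complement and lipid handling in macrophages, 13 were lower in all 3 pairs and none was higher in all 3, with a median difference of -0.31. The medians were -0.22, -0.40 and -0.37 in pairs 1, 2 and 3, beside 0.00, -0.02 and -0.01 over all genes tested. The 15 general macrophage and monocyte markers had 13 members lower in all 3 pairs, 0 higher, and a median of -0.22 (-0.08, -0.32 and -0.30 by pair). Their summed RPKM was 1215, 1827 and 1857 without CCL17 and 1123, 1467 and 1483 with it, so the ratio within pairs was 0.93, 0.80 and 0.80. For the complement and lipid handling genes the sums were 1602, 2346 and 2432 without and 1419, 1803 and 1847 with CCL17, ratios of 0.89, 0.77 and 0.76. The sum was thus lower in every pair, and less so in pair 1, whose cultures contained the least phagocyte RNA. The CD4 T cell markers had within-pair ratios of 0.98, 0.94 and 0.97, and 5 of the 11 were lower and 0 higher in all 3 pairs. Leaving out a single library kept both medians negative: they ranged from -0.47 without the control numbered 1 to -0.19 (complement and lipid handling) and -0.07 (general markers) without the culture with CCL17 numbered 1.

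**Figure D1:**
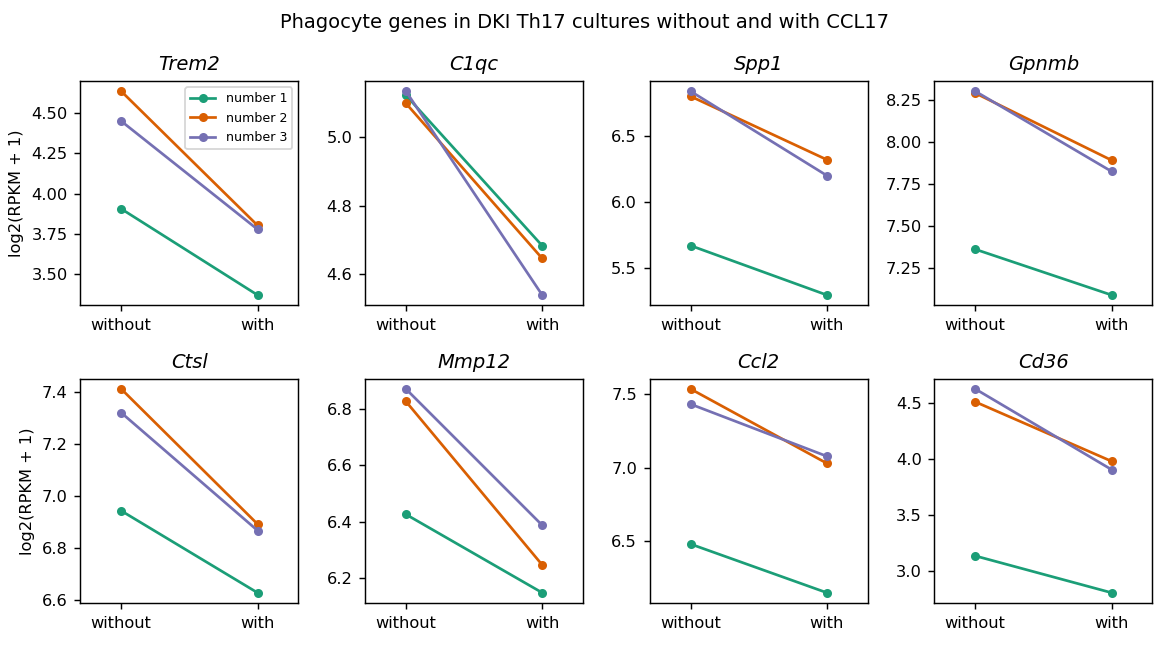
Levels of 8 phagocyte genes, as log2(RPKM + 1), in each DKI Th17 culture without (left) and with (right) CCL17. Each line joins the libraries of the same replicate number, and vertical axes differ between genes and do not start at 0. The 8 genes were picked after the data were seen, among those called lower in a setting described below. That every line falls from left to right is therefore no separate support. Phagocyte genes that did not fall in every pair, such as Apoe, are not shown. For 7 of the 8 genes the libraries numbered 1 lie below the others of their group, and C1qc is the exception.

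Complement component C1q, which macrophages secrete, is built from the products of C1qa, C1qb and C1qc. C1qc (Entrez 12262) was 5.12, 5.10 and 5.13 in the cultures without CCL17 and 4.68, 4.65 and 4.54 in those with it. The groups did not overlap, and the difference was -0.50 (SE 0.06, limma adjusted p = 0.976, unadjusted p = 8.64e-05). C1qa was 4.90, 5.13 and 4.98 without and 4.65, 4.50 and 4.67 with CCL17, again without overlap, a difference of -0.40. C1qb was 3.92, 4.12 and 3.98 without and 3.61, 3.85 and 3.59 with it, a difference of -0.32. The 3 chains of C1q were thus lower by similar amounts.

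Trem2 encodes a lipid-sensing receptor of macrophages and microglia that signals through the adaptor encoded by Tyrobp. Its level was 3.91, 4.63 and 4.45 without CCL17 and 3.37, 3.80 and 3.78 with it (Entrez 83433). The difference was -0.68 (SE 0.21, adjusted p = 0.999), and the pair differences were -0.53, -0.83 and -0.67. All 3 cultures with CCL17 were below all 3 without. Spp1, which encodes the secreted matrix protein osteopontin, was 5.67, 6.80 and 6.84 without and 5.29, 6.32 and 6.20 with CCL17. Gpnmb, a glycoprotein of lipid-laden macrophages, was 7.36, 8.29 and 8.30 without and 7.09, 7.89 and 7.82 with it. For both genes the groups overlapped, because the culture numbered 1 without CCL17 was below the cultures numbered 2 and 3 with it, while each pair differed in the same direction (Spp1 by -0.37, -0.48 and -0.64, Gpnmb by -0.27, -0.40 and -0.48).

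The promoters of Spp1 and Gpnmb are shown because genes that vary together can be read side by side for shared sequence. Windows run from 250 bases before to 50 after the transcript start, from RefSeq on build GRCm38.p6, and capitals mark a match on either strand to TGACTCA (the AP-1 site), GAGGAAGT (a PU.1 site of the myeloid lineage) or CACGTG (an E-box of MITF and TFEB-like factors). The Spp1 window lies at chr5:104434861-104435160 on the plus strand and the Gpnmb window at chr6:49036268-49036567 on the plus strand. No match overlaps another motif in these windows.
Spp1: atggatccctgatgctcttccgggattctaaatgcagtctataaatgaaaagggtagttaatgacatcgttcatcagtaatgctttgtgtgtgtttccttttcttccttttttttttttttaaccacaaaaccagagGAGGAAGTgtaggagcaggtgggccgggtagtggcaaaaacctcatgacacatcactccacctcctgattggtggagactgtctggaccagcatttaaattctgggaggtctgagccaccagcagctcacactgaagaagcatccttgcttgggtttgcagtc
Gpnmb: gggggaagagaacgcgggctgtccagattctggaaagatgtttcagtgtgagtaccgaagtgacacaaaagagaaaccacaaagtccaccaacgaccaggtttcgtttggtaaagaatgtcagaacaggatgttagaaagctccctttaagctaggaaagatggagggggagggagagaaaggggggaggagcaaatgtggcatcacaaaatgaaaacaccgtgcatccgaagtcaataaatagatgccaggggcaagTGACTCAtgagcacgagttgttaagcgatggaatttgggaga

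Spp1 holds GAGGAAGT and Gpnmb holds TGACTCA, so they share none of these motifs. The Trem2 window, not shown, holds no match. Of the 33 genes in both phagocyte lists, 22 matched the promoter table with 27 windows. TGACTCA was in 4 of them (14.8%, in C3ar1, Cd68, Gpnmb and Mmp12), against 5.2% of all 32851 windows. GAGGAAGT was in 4 (14.8%, in C1qc, Ctss, Mmp12 and Spp1), against 3.2% of all windows, and CACGTG was in 2 (7.4%, in Ctsd and Plin2), against 7.15%. These are matches of letters, and no binding was measured.

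Single genes of secreted or lysosomal proteases and chemokines are given next, not as a group. Mmp12, the macrophage elastase, was 6.43, 6.83 and 6.87 without CCL17 and 6.15, 6.25 and 6.39 with it, a difference of -0.45 with no overlap. Ctsl, a lysosomal protease, was 6.94, 7.41 and 7.32 without and 6.63, 6.89 and 6.87 with CCL17, also with no overlap. Ccl2, the main monocyte chemoattractant, was 6.48, 7.53 and 7.43 without and 6.15, 7.03 and 7.08 with it, and here the groups overlapped. Ccl5, a chemokine that T cells also make, differed by -0.20, -0.46 and 0.10. The genes lower in all pairs whose smallest pair difference was largest also included Cd36, a scavenger receptor (pair differences -0.33, -0.53 and -0.72), and Plau, the urokinase protease (-0.58, -0.38 and -0.39). Il1a, which encodes IL-1α, had differences of -0.36, -0.35 and -0.34, and Atp6v0d2, a proton pump subunit, had -0.42, -0.43 and -0.69. Not all phagocyte genes were lower in every pair: Apoe, a lipid carrier, differed by 0.04, -0.31 and -0.12. Lyz2, the myeloid lysozyme (-0.03, -0.32 and -0.30), and Adgre1, a macrophage surface receptor gene (-0.06, -0.19 and -0.21), were lower in every pair, least in pair 1.

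How many of these genes passed the test depended on the pairing. With the replicate number as a block, C1qc and Trem2 had an adjusted p of 0.0595 and Spp1, Gpnmb, Ctsl and Ccl2 of 0.0654 in limma, so none passed. A fit of pairs 2 and 3 alone leaves out pair 1, in which the phagocyte sums differed least. Deviations from group means correlated at 0.509 and 0.525 within numbers 2 and 3, and at 0.533 and 0.503 between them. Neither the labels nor the data thus set which of these libraries belong together. In that fit, 204 genes passed as higher (1.81%) and 374 as lower (3.31%), among them 14 of the 18 complement and lipid handling genes and 10 of the 15 general markers. When antigen receptor segments were left out of the block, 12 genes were called higher (0.11%) and 46 lower (0.42%), with 9 and 2 members of those lists. When each library's trend with transcript length was also removed, 16 were called higher (0.148%) and 49 lower (0.453%), again with 9 and 2 members. C1qc, Trem2, Spp1, Gpnmb, Ctsl, Mmp12, Mmp13, Ccl2, Ccl7 and Clec7a were lower and passed in both of these last settings. The block without segments and the block without the length trend shared 46 genes, which is 79.3% of the first set and 70.8% of the second. Both settings were chosen after the data were seen. Other genes that were lower in the last one, named after their values were seen, were Mrc1, Msr1 and Clec4e, which encode endocytic or pattern recognition receptors, and the lysosomal genes Ctsb, Ctsd, Ctsz, Lgmn, Psap and Grn.

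**Figure D2:**
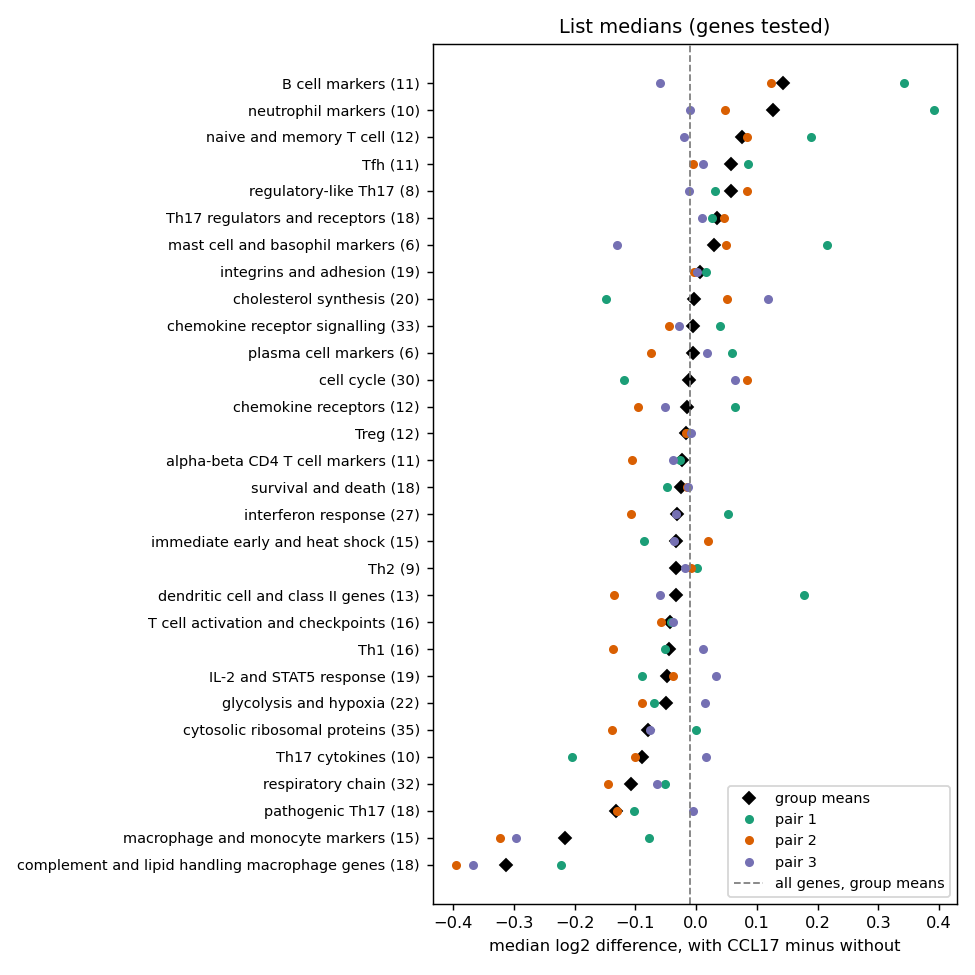
Median log2 difference (with CCL17 minus without) over the tested members of each gene list with at least 5 tested members, from group means (diamonds) and in each same-number pair (circles); member counts stand in parentheses and the dashed line is the median of all 11297 genes. The pair of macrophage lists is lowest from group means and in pairs 2 and 3, while the Th17 regulator, Th1 and STAT5 lists lie within 0.1 of the line from group means.

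Other cell types moved less evenly. Of 13 tested dendritic cell and class II genes, 2 were lower (15.4%) and 0 higher in all 3 pairs. Over all genes tested, 20.1% were lower in all 3. The median of these 13 genes was -0.03, and 0.18, -0.14 and -0.06 by pair. The 11 B cell markers had a median of 0.14, but 0.34, 0.12 and -0.06 by pair, and -0.01 without the control numbered 1. The 10 neutrophil markers summed to 601.5, 278.6 and 309.2 RPKM without CCL17 and 852.4, 295.4 and 278.5 with it, so the libraries numbered 1 were high in both groups. Only the culture with CCL17 numbered 1 held much haemoglobin RNA: Hbb-bs was 6.28 there and 2.09 to 2.69 in the other 5 cultures. That culture also set Hba-a1, whose pair differences were 3.34, 0.37 and 0.32. The part of these other cells in the differences above was not tested.

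None of the cytokine genes that define Th17 cells passed the test. Of 10 Th17 cytokine genes, 1 was higher and 3 were lower in all 3 pairs, and the median difference was -0.09 (-0.20, -0.10 and 0.02 by pair). That median ranged from -0.29 without the control numbered 1 to 0.12 without the culture with CCL17 numbered 1, and its sign also turned without the control numbered 2. Il17a had pair differences of -0.33, -0.06 and -0.02, and the sign was shared although in pairs 2 and 3 the difference was no more than 0.06. The 95% interval of the difference between group means ran from -1.15 to 0.88 without the block and from -0.29 to 0.02 with it. Csf2, which encodes GM-CSF, was 8.54, 8.69 and 8.62 without and 8.37, 8.59 and 8.66 with CCL17, an interval of -0.31 to 0.15. Il17f differed by -0.25, 0.06 and -0.07, Il22 by -0.29, -0.13 and 0.02, and Il21 by 0.18, 0.03 and 0.16. Tnf (-0.14, -0.16 and -0.27) and Il3 (-0.23, -0.10 and -0.09) were lower in every pair without passing the test.

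Ifng, the signature cytokine of Th1 cells, had pair differences of -0.55, -0.25 and -0.09. Its interval with the block, -0.48 to -0.11, lay below 0, with an adjusted p of 0.21 in limma. Th1 genes as a list did not follow: of 16, 1 was higher and 3 were lower in all pairs. Tbx21, which encodes the Th1 regulator T-bet, differed by 0.03, -0.08 and 0.07. The pathogenic Th17 list had 8 of 18 members lower and 2 higher in all pairs, with a median of -0.13 that became -0.06 when the length trend was removed. Without the culture with CCL17 numbered 1 that median was 0.06. The members with the lowest p in that list included Lgals3 (-0.16, -0.46 and -0.51), which macrophages also express, Casp1 (-0.10, -0.19 and -0.16), Cxcl3 (-0.04, -0.35 and -0.14) and Lag3 (-0.21, -0.13 and -0.05).

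**Figure D3:**
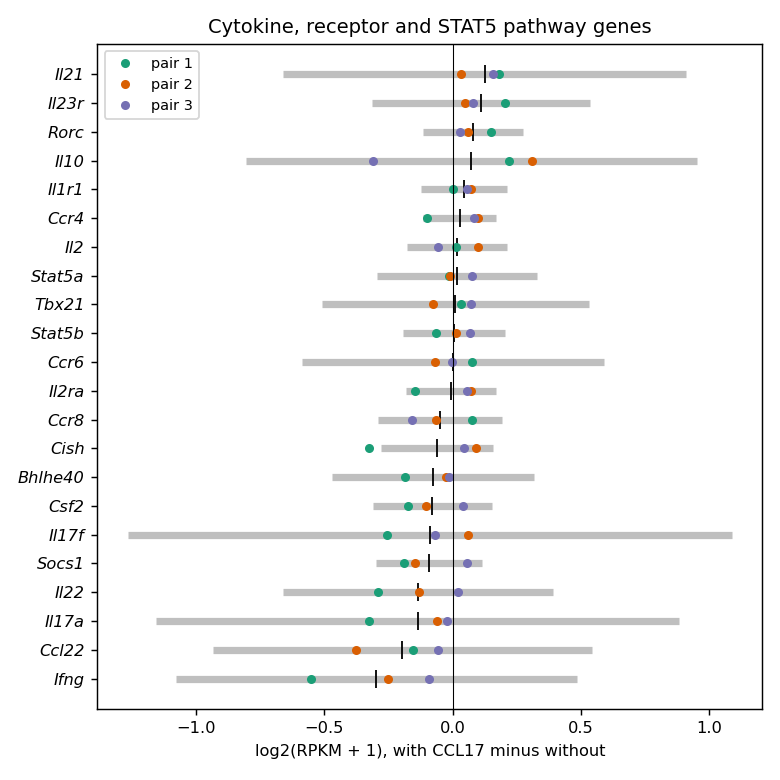
Differences in log2(RPKM + 1), with CCL17 minus without, for 22 tested genes of the CCL17, Th17 and STAT5 pathways. Circles are same-number pairs, black ticks the difference of group means and grey bars its 95% confidence interval from limma without the block. Every bar includes 0, and bars are widest for genes such as Il17a and Il17f whose libraries numbered 1 stood apart.

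The receptor of CCL17 and its ligands were measured in the same cultures. Ccr4 was 6.63, 6.52 and 6.50 without CCL17 and 6.53, 6.62 and 6.58 with it, and the groups overlapped. Its difference of 0.03 had a 95% interval of -0.11 to 0.17. Ccl22, the other ligand of CCR4, differed by -0.15, -0.38 and -0.06. Ccl17 itself was below the threshold for testing, which is 1 on the log2(RPKM + 1) scale: 0.18, 0.36 and 0.35 without and 0.21, 0.69 and 0.62 with the added chemokine, a level of 1.41 being reached in spinal cord monocytes. Of 12 tested chemokine receptor genes, 3 were lower and 0 higher in all pairs. Ccr1, the receptor of several inflammatory chemokines, was 5.22, 5.21 and 5.19 without and 5.03, 4.94 and 4.92 with CCL17, without overlap. Cxcr4, the receptor of CXCL12, was also lower in every pair (-0.03, -0.20 and -0.17), and Ccr6, the receptor of Th17 cells, differed by 0.08, -0.07 and 0.00. Among 33 genes of chemokine receptor signalling, 6 were higher and 9 lower in all pairs.

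Genes of the IL-2 and STAT5 response did not pass the test. Of 19, none was higher and 3 were lower in all pairs, with a median of -0.05, which became 0.015 without the culture with CCL17 numbered 1. Stat5a differed by -0.02, -0.01 and 0.08 and Stat5b by -0.06, 0.01 and 0.07, with 95% intervals of -0.30 to 0.33 and -0.19 to 0.20. Il2ra, which encodes the IL-2 receptor alpha chain and is a STAT5 target, differed by -0.15, 0.07 and 0.05. The feedback inhibitors Cish (-0.32, 0.09 and 0.04) and Socs1 (-0.19, -0.14 and 0.06) went both ways. Bach2, a repressor that maintains naive and memory T cells, was 3.14, 3.33 and 3.33 without and 3.39, 3.62 and 3.57 with CCL17, higher in every pair by 0.25, 0.29 and 0.24, and by 0.15 from group means with the length trend removed. Of 12 naive and memory T cell genes, 3 were higher and 1 lower in all pairs. Itga4, the integrin subunit of VLA-4, differed by 0.09, 0.18 and 0.21, and by 0.03 from group means once the length trend was removed. Mki67, a proliferation marker, differed by -0.03, 0.45 and 0.35, and by 0.12 from group means with the length trend removed. Of 30 cell cycle genes 1 was higher and 3 were lower in all pairs.

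Among the genes higher in all pairs whose smallest pair difference was largest, H60b, which encodes a ligand of the activating receptor NKG2D, was 0.52, 0.99 and 0.68 without CCL17 and 1.27, 1.67 and 1.60 with it. H60b and Hba-a1 reached the expression threshold, 1 on this scale, only in the 3 cultures with CCL17, so their groups had to be apart. Their values are a description, and no test of them is read as support. Zfp652, a zinc finger repressor, was 3.51, 3.53 and 3.38 without and 3.96, 3.89 and 3.89 with CCL17. Orm2, an acute phase protein, was 2.22, 1.61 and 1.64 without and 2.53, 2.54 and 2.54 with it. Vasn, a membrane protein that binds TGF-β, differed by 0.35, 0.56 and 0.65, and Neb, a giant muscle protein, by 0.35, 0.74 and 0.36. With the length trend removed, the difference between group means went from 0.44 to 0.30 for Zfp652 and from 0.48 to 0.35 for Neb. It went from 0.71 to 0.80 for Orm2 and from 0.52 to 0.54 for Vasn. Adcy4, Cstdc5, Fndc9, Lama5, Rps19-ps3 and Tmed1 completed that set with Hba-a1; Rps19-ps3 is a pseudogene whose reads may come from its parent gene. On the lower side stood Ear2, a ribonuclease of eosinophils and macrophages (-0.89, -0.49 and -0.74), Insl5, an insulin-like peptide (-0.72, -0.80 and -0.47), Ccl24, an eosinophil chemokine (-0.37, -0.82 and -0.33), and B9d1, a protein of cilia (-0.34, -0.51 and -0.41).

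The libraries numbered 1 differed from the others far more than the groups did. The first principal component held 67.7% of the variance and separated them, while the second held 12%. Across the tested genes, the offset of library 1 from the mean of 2 and 3 correlated at 0.774 between the groups, as a description over genes that share these libraries. By 2-fold or more in both groups, 23 genes were higher and 122 lower in the libraries numbered 1, and 1 went opposite ways. Higher genes included the neutrophil granule genes Ngp (by 1.44 without and 1.92 with CCL17) and S100a8 (1.27 and 1.74), and Sdf2l1 of the endoplasmic reticulum (1.36 and 2.03). Lower genes included Il17f (-1.17 and -1.42) and Cd36 (-1.43 and -1.14). Il17a (-0.96 and -1.24) and Spp1 (-1.15 and -0.96) were also lower in both groups, but by 2-fold in only 1 of them. Tbx21 was higher in both (0.54 and 0.58).

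**Figure D4:**
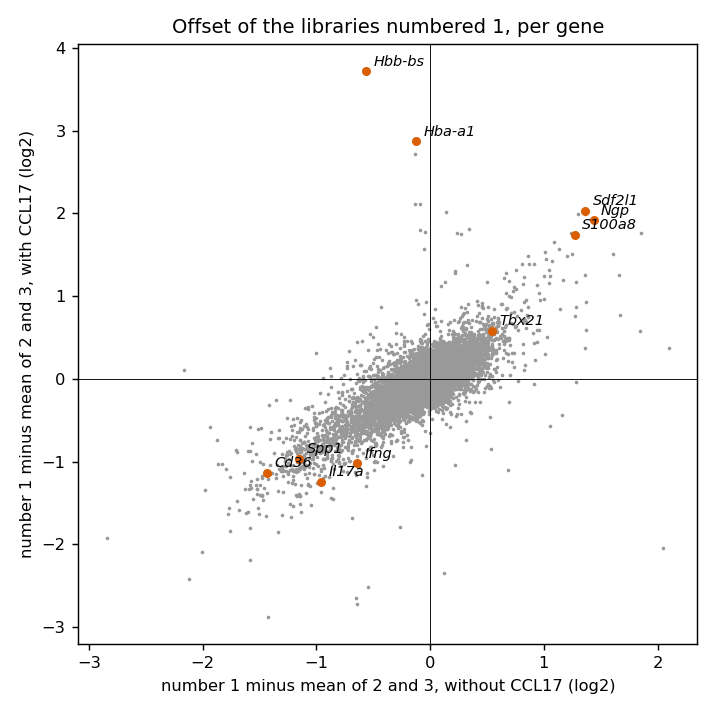
Offset of the library numbered 1 from the mean of those numbered 2 and 3, in log2(RPKM + 1), without CCL17 (horizontal) and with CCL17 (vertical), 1 point per tested gene with 10 genes named. Most points lie along the rising diagonal, and the haemoglobin genes Hbb-bs and Hba-a1 stand high in the culture with CCL17 alone.

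Differences followed transcript length. Over 10824 genes with a GENCODE transcript, Spearman's correlation of the pair difference with the length of the longest transcript was 0.09, 0.47 and 0.32 in pairs 1, 2 and 3, as a description over genes that share their libraries. In pair 2 the median difference rose from -0.11 in the 2166 shortest genes to 0.09 in the 2165 longest. Lists of short genes did not all lie low: the neutrophil markers, with a median length of 962.5 bases, had a median difference of 0.13. By pair it was 0.39, 0.05 and -0.01, so it was high only in pair 1, where the correlation with length was weakest. Of 35 cytosolic ribosomal protein genes, with a median length of 1128 bases, 16 were lower and 1 higher in all pairs, and their median went from -0.08 to -0.01 with the length trend removed. Of 32 respiratory chain genes, 20 were lower and 0 higher, with a median of -0.11 and then -0.03. For complement and lipid handling genes the median moved from -0.31 to -0.30 only, and for the general macrophage markers from -0.22 to -0.17.

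**Figure D5:**
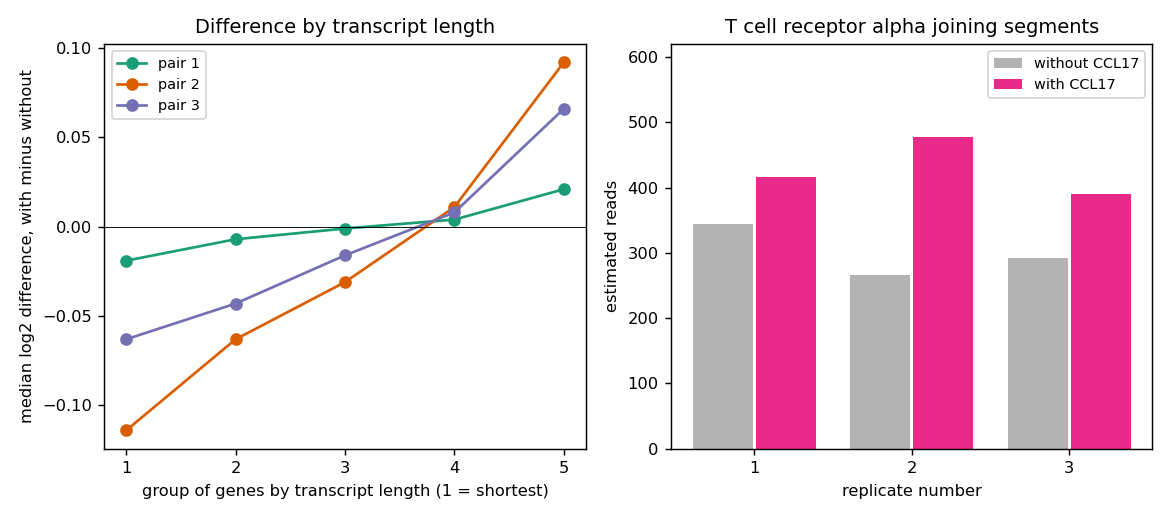
Left, median difference in log2(RPKM + 1), with CCL17 minus without, in 5 groups of genes of nearly equal number, ordered by transcript length, for each same-number pair; the slope is steepest in pair 2 and nearly flat in pair 1. Right, estimated reads on all T cell receptor alpha joining segments in each library, which are higher with CCL17 in every pair.

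RNA made by mitochondria, and the joining segments of the T cell receptor alpha locus, ran the other way. Of 15 mitochondrially encoded genes, a list added after the data were seen, 10 were higher in all pairs and none lower, with a median of 0.18. The ribosomal RNA gene mt-Rnr1 was 9.58, 9.40 and 9.45 without CCL17 and 9.96, 9.88 and 9.72 with it, without overlap. ND1, a subunit of respiratory complex I, was 10.68, 10.91 and 10.67 without and 10.94, 11.02 and 10.89 with it, with overlap. With the block alone 0 of the 15 passed, and 2 passed when antigen receptor segments were left out. With the block and the length trend removed, 8 of the 13 that have a transcript length passed, all of them higher. These genes are short, with a median length of 784 bases, so that count depended on the length setting, which was chosen after the data were seen.

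Traj20 and Traj31, the pair of genes called with the block, are shown because each is so short that few reads decide its level. A joining segment is the short coding piece that a rearranging T cell receptor gene joins to a variable segment. Both are given as GENCODE M21 lists them on GRCm38, Traj20 at chr14:54199441-54199498 (58 bases) and Traj31 at chr14:54187895-54187951 (57 bases), on the plus strand. Capitals mark the codons of the Phe-Gly-X-Gly motif, which Traj31 holds and whose letters were not found in Traj20.
Traj20: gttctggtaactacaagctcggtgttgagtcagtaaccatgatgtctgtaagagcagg
Traj31: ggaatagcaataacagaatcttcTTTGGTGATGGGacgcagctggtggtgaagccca

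Traj20 was at 3.40, 2.58 and 3.26 without CCL17 and 4.51, 4.20 and 4.41 with it, and Traj31 at 3.42, 2.60 and 3.46 and then 4.53, 3.84 and 4.26. In estimated reads, Traj20 had 8, 4 and 7 without and 16, 16 and 17 with CCL17, and Traj31 had 8, 4 and 8 and then 16, 12 and 15. The differences were 1.29 and 1.05, both with an adjusted p of 0.025 in limma with the block and 0.999 without it. Of 49 tested joining segments, a list added after these 2 genes were seen, 19 were higher and 2 lower in all pairs, with a median of 0.42 (0.17, 0.67 and 0.57 by pair). Over all joining segments the estimated reads were 344, 266 and 292 without and 416, 478 and 391 with CCL17, not adjusted for library size. The summed RPKM was 392.6, 319.8 and 343.9 without and 546.5, 500.8 and 450.2 with CCL17. It was 1498 and 652.5 in the 2 other DKI Th17 cultures of the series and 2408 and 2055 in the 2 wild-type ones. This sum thus also varied widely between DKI cultures outside this comparison. The 13 beta joining segments had a median of 0.06, with 1 higher and 0 lower in all pairs. The 53 alpha variable segments tested had a median of 0.05, and 8 were higher and 4 lower in all pairs. Whether the counting used strand is not given in the sources used here.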

How the data were processed

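The authors deposited log2 values, log2(RPKM + 1), made per the submitters' processing notes with Subread and featureCounts on build mm10. Versions and annotation release are not given in the sources used here. Base 2 was checked on length-weighted sums, and the 0.0001 marking genes without reads was set to 0. Of 21073 gene identifiers, 20857 matched RefSeq. 1 column of per-sample values with no matching title was not used. Estimated read totals come from the steps between low values; 73.4% to 77.7% of low values fell within 0.1 reads of a whole number.

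Genes with RPKM of at least 1 in 3 of the 6 libraries were tested with limma 3.58.1 (R 4.3.3, eBayes with trend) and Benjamini-Hochberg adjustment, at 0.05. Without counts, no count model was used. The alternative with the replicate number as a block rests on the data: deviations from group means correlated at 0.774, 0.509 and 0.525 within same numbers, but also at 0.533 and 0.503 between numbers 2 and 3, and at -0.649 to -0.621 between number 1 and the others. No label states the pairing. The length alternative subtracted each library's local trend with the longest GENCODE transcript, held between 500 and 10000 bases. It leaves out genes with no transcript length, receptor segments among them.

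Named genes are up to 12 per direction with all 3 pairs of one sign and the largest smallest difference, up to 12 called with the block, 23 genes fixed for the question, and 4 per list with the lowest p. The cultures, gene lists and rule were chosen with earlier results of these data known. The procedure was tested on simulated data. A result for 1 gene within the rule is not reported here.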

Additional observations from a re-analysis of the deposited data

How the results depend on the processing

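Without a block, 0 genes were called under other pseudocounts, expression filters, median centring, quantile normalization, a fixed variance prior, the spread of all 10 Th17 libraries, the length trend removed, or leaving out any library (0 to 0 calls, smallest adjusted p 0.189 in limma without control number 1). Array weights called 53 genes. The replicate block called 2, and 9 with centred libraries, 578 with pairs 2 and 3 only, 7 with pairs 1 and 2, 5 with pairs 1 and 3, 58 without antigen receptor segments and 65 with the length trend removed as well. The cause of these spreads was not tested.

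The median of the complement and lipid handling genes was -0.474 to -0.187 when 1 library was left out and -0.391 to -0.251 in the other settings, so it was negative in each. For the general macrophage markers it was -0.467 to -0.075 and -0.311 to -0.162. The values nearest 0 came without the culture with CCL17 numbered 1 and the lowest without control number 1. Of 978 values for named genes with 1 library left out, 746 stayed within the spread between replicates and 232 moved. In 81 of the 978 the sign turned. Of 204 medians of the fixed lists with 1 library left out, 82 moved beyond the spread and 52 had the other sign. Each library had at most 15800000 assigned reads, and joining segments rested on few.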
